A study of Homo sapiens with 6 samples.

Results

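NUPR1, the 3 tribbles genes TRIB1, TRIB2 and TRIB3, and the genes KLHL24, LURAP1L and RHBDD1 are described here in RCC4 cells with and without a knockout of the transcription factor gene ATF4. RCC4 is an established human cell line from a clear cell renal carcinoma without functional VHL. The groups were parental RCC4 cells, whose genotype is labelled wild type (n = 3), and RCC4 cells with ATF4 knocked out (n = 3), and both groups share the VHL defect of the line. How ATF4 was disrupted, whether the knockout cells are 1 clone or a pool, and whether replicates were separate cultures is not stated in the sources used here, so p-values measure only the spread between these libraries, which may be technical. The 7 genes were taken by name, as stress-response cofactors, from the 60683 genes of the count table, and all 7 were among the 15321 genes with enough counts to be tested. They were selected with the results of this same contrast known, in particular a large change of NUPR1 beside a modest change of TRIB3. Their values in this contrast are therefore given as a description without p-values.

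ATF4 is a basic leucine zipper factor whose translation increases when the initiation factor eIF2 is phosphorylated, and it drives genes of amino acid supply, redox balance and stress adaptation. NUPR1 encodes a small, intrinsically disordered chromatin protein that is induced by many kinds of cell stress. Tribbles proteins are pseudokinases that lack ordinary kinase activity and act as scaffolds: they bring substrates to the ubiquitin ligase COP1 and bind kinases of the MAP kinase and AKT pathways. TRIB3 is a textbook target of ATF4 together with CHOP, the product of DDIT3. KLHL24 is a substrate adaptor of cullin-3 ubiquitin ligases that acts on keratin 14, LURAP1L is a little-studied relative of the actomyosin adaptor LURAP1, and RHBDD1 is a rhomboid protease of the endoplasmic reticulum that works with the segregase VCP in protein degradation.

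Promoter sequences from RefSeq (GRCh38.p14) were matched for 5 of the 7 genes, namely TRIB2, TRIB3, KLHL24, LURAP1L and RHBDD1, as windows from 250 bases before to 50 bases after each annotated transcription start. The windows were searched on both strands for the composite C/EBP-ATF element TGATGNAA, for TGACG, for ACGTG and for CCAAT. The element TGATGNAA was in none of the windows of these 5 genes and in 3.62% of all 35116 windows. It was in the windows of 11 of the 29 other ATF4 and CHOP targets that had one. A match or its absence says only that the letters are or are not in the window. The 250 bases before the start are printed for 3 of the genes, because TRIB3 is the classical target and KLHL24 and RHBDD1 were the ones that held a searched motif. Capitals mark the motifs, and all sequences are written 5′ to 3′ on the strand of the gene, here the plus strand. The stretch of TRIB3, the first of its 3 annotated starts, is chr20:381045-381294, that of KLHL24 is chr3:183635373-183635622 and that of RHBDD1 is chr2:226835804-226836053.
TRIB3: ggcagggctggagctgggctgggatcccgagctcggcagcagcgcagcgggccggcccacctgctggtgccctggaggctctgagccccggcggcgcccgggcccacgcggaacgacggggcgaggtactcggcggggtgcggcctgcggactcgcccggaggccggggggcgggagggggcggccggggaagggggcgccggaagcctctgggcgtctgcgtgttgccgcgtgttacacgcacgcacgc
KLHL24: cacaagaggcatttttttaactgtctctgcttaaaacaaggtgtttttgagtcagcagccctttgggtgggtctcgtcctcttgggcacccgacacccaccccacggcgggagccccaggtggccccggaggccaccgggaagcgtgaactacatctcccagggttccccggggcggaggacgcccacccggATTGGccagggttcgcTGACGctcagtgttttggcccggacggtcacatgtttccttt
RHBDD1: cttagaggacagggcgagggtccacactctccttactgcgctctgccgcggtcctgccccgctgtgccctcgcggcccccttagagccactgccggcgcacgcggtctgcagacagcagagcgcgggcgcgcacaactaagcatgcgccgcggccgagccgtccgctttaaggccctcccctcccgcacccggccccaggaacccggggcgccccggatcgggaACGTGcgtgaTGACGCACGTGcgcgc

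The capitals in the KLHL24 stretch are CCAAT on the opposite strand, which begins at position -58 from the start, and TGACG, which begins at position -42. In the RHBDD1 stretch TGACG begins at position -16 from the start. ACGTG lies before it, with its first base at -26, and again after it on each strand, where the 2 matches share letters. These short motifs are common. TGACG was in 24.6% of all windows, ACGTG in 21.4% and CCAAT in 34.6%.

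For comparison, the composite element is shown with 8 bases on each side at 4 other ATF4 targets, each on the strand of its gene and with the element in capitals. AARS1 (alanyl-tRNA synthetase, chr16:70289678-70289701, minus strand) and CHAC1 (a glutathione-degrading enzyme, chr15:40953254-40953277, plus strand) carry it in reverse. JDP2 (a leucine zipper repressor, chr14:75427998-75428021, plus strand) and CEBPG (a C/EBP partner of ATF4, chr19:33374063-33374086, plus strand) carry it in the forward direction. All 4 were called lower in the knockout, as were CARS1, HERPUD1 and SLC3A2, whose windows also hold the element. NARS1 and ATF3 hold it too and were not called, and ASNS and FGF21 were not tested. Of all tested genes in the list of other ATF4 and CHOP targets, 70.0% were called lower, beside 20.8% of all tested genes. The list was chosen with earlier results known, so nothing is read from these calls.
AARS1: tctcgcagTTGCATCAgccaagtt
CHAC1: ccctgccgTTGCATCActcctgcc
JDP2: gccggggcTGATGCAAcccgtccc
CEBPG: gcggcgtcTGATGCAAcctgccgg

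The libraries held 41002611 to 46755358 counts each, so 3 counts, the floor used here, correspond to 0.0642 to 0.0732 CPM (counts scaled to library size), for counting error only. ATF4 itself, the targeted gene, was retained at the RNA level. Its values were 239.5, 251 and 243 CPM in the parental libraries and 209.8, 223 and 209 CPM in the knockout libraries, a log2 fold change of -0.19 ± 0.0294 (SE, edgeR quasi-likelihood test, Benjamini-Hochberg adjusted p = 3.19e-07). Genes around ATF4 on chromosome 22 had a median of -0.25, and with that median removed ATF4 lay at 0.064 with the sign turned, so the RNA gives no check of the knockout. All 7 renal and clear cell carcinoma markers examined were present, with 683 to 240745 counts per library. Some of them differed between the groups. CA9 held 683 to 757 counts in parental and 3854 to 4688 in knockout libraries. NDUFA4L2 held 11261 to 12629 and 19126 to 22270 counts, and PAX8 9864 to 10546 and 8511 to 10327. The reason was not tested. The 4 leukocyte and 3 endothelial markers had at most 10 counts in any library, 2 of the leukocyte markers none at all. Of the 3 fibroblast markers 2 had at most 10 counts, and the summed level of the list, nearly all PDGFRB, was 8.86 to 10.9 CPM in parental and 4.57 to 5.12 CPM in knockout libraries. Its part in the results was not tested.

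Of the 7 genes NUPR1 had by far the lowest relative level in the knockout cells. NUPR1 (ENSG00000176046, GRCh38 chromosome 16, 28532708 to 28539174, minus strand) was at 73.9, 75.0 and 71.7 CPM in the parental libraries and at 7.93, 8.52 and 7.82 CPM in the knockout libraries. Every knockout library lay far below every parental one. The group means were 73.5 ± 1.65 and 8.09 ± 0.375 CPM (SD, n = 3 each), so 11% of the parental level remained, a 9.09-fold difference. On the log2 scale this was -3.18 ± 0.0552 (SE, 95% interval -3.29 to -3.07). Fewer expressing cells and less RNA per cell cannot be told apart in such bulk libraries. The knockout value rests on 326, 396 and 370 counts, far above the floor, so NUPR1 was lower but still detected in all 3 knockout libraries.

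Among the 15321 tested genes NUPR1 had the 13th lowest log2 fold change (-3.18). Many genes in that range have few counts. Of the 9351 genes with at least 10 CPM in parental cells 2 had a log2 fold change at or below that of NUPR1. These were NUPR1 itself and PSG1, a pregnancy-specific glycoprotein gene. That filter used the parental level alone, which NUPR1 passed at 73.5 CPM, while its knockout mean was 8.09 CPM. NUPR1 was also chosen for its large change, so both ranks are a description. The median over all tested genes was 0.0077.

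TRIB3 had the highest CPM of the 7 genes in parental cells, without scaling for length, and a more modest relative difference. TRIB3 (ENSG00000101255, chromosome 20, 362835 to 397559, plus strand) was at 199, 198 and 197 CPM in parental and at 119, 126 and 125 CPM in knockout libraries. The 6 values again separated by group with a wide gap. The means were 198 ± 1.29 and 123 ± 3.39 CPM (SD, n = 3), which leaves 62.3% of the parental level, a log2 fold change of -0.68 ± 0.0297 (SE). In relative terms NUPR1 and TRIB3 were thus far apart, at 9.09-fold and 1.60-fold. In CPM, which are not scaled for gene length, the order was the other way round. The knockout mean minus the parental mean was -65.5 CPM for NUPR1 and -74.7 CPM for TRIB3.

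The relation of the 2 genes was almost constant within each group. Per 100 TRIB3 counts there were 37.0, 37.9 and 36.4 NUPR1 counts in the parental libraries and 6.64, 6.79 and 6.26 in the knockout libraries. This ratio needs no scaling between libraries, and it was 37.1 ± 0.754 and 6.56 ± 0.272 (SD, n = 3).

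TRIB1 (ENSG00000173334, chromosome 8, 125430321 to 125438405, plus strand), which directs C/EBP-alpha to COP1, was at 164, 162 and 158 CPM in parental and at 114, 118 and 122 CPM in knockout libraries. All 3 knockout values lay below the parental ones. The means were 161 ± 2.87 and 118 ± 3.96 CPM (SD, n = 3), 73.2% of the parental level and a log2 fold change of -0.45 ± 0.031 (SE).

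TRIB2 (ENSG00000071575, chromosome 2, 12716889 to 12742734, plus strand), the close relative of TRIB1, was scarce. It had 68, 69 and 41 counts in the parental libraries, or 1.56, 1.57 and 0.973 CPM, and 48, 40 and 43 counts in the knockout libraries, or 1.17, 0.860 and 0.909 CPM. The groups overlapped, because the third parental library lay below the first knockout library. Its log2 fold change of -0.49 ± 0.244 (SE) had a 95% interval, unadjusted for the number of genes, of -0.98 to -0.0025, which runs from almost no difference to a nearly 2-fold lower level. The coefficient of variation among the parental libraries was 25.0%, against 13.0% from counting alone.

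TRIB1 and TRIB3 together made up nearly all tribbles RNA. The summed tribbles level was 361 ± 4.39 CPM in parental and 242 ± 6.77 CPM in knockout cells (SD, n = 3). TRIB3 held 54.9% ± 0.349 of the tribbles counts in parental and 50.9% ± 0.533 in knockout libraries. TRIB1 held 44.7% ± 0.259 and 48.7% ± 0.526. Per 100 TRIB3 counts there were 80.3 to 82.1 TRIB1 counts in parental and 93.6 to 97.7 in knockout libraries, with no overlap between the groups. Since both genes belong to the set chosen from this contrast, the shift is a description.

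KLHL24 (ENSG00000114796, chromosome 3, 183635568 to 183684477, plus strand) was at 79.4, 80.6 and 78.6 CPM in parental and at 64.1, 63.8 and 67.0 CPM in knockout libraries. The groups did not overlap, although the difference was small. The means were 79.5 ± 0.985 and 65.0 ± 1.76 CPM (SD, n = 3), 81.7% of the parental level and a log2 fold change of -0.29 ± 0.0373 (SE).

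LURAP1L (ENSG00000153714, chromosome 9, 12775021 to 12822131, plus strand) had 132, 127 and 142 counts in parental and 67, 95 and 81 counts in knockout libraries. In CPM these were 3.04, 2.89 and 3.37 against 1.63, 2.04 and 1.71, and the groups did not overlap. The means were 3.10 ± 0.247 and 1.80 ± 0.219 CPM (SD, n = 3), 57.9% of the parental level. The log2 fold change of -0.78 ± 0.165 (SE) exceeded that of TRIB3 in size but was known less precisely, with a 95% interval of -1.11 to -0.45. The antisense gene LURAP1L-AS1 overlaps the locus on the opposite strand and held 18 counts in all 6 libraries, against 644 for LURAP1L.

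RHBDD1 (ENSG00000144468, chromosome 2, 226835581 to 226999215, plus strand) lay at the same level in both groups within their spread. It was at 43.9, 44.3 and 44.0 CPM in parental and at 43.7, 42.4 and 45.2 CPM in knockout libraries, so the knockout values lay on both sides of the parental ones. Its log2 fold change was -0.0094 ± 0.0454 (SE), with a 95% interval of -0.10 to 0.08, and its sign turned to 0.017 with scaling by total counts and to 0.013 without ATF4 knockout replicate 2. The libraries held 1797 to 2136 RHBDD1 counts each. The coefficient of variation was 0.52% in parental and 3.11% in knockout libraries, against 2.29% and 2.25% from counting alone.

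**Figure D1:**
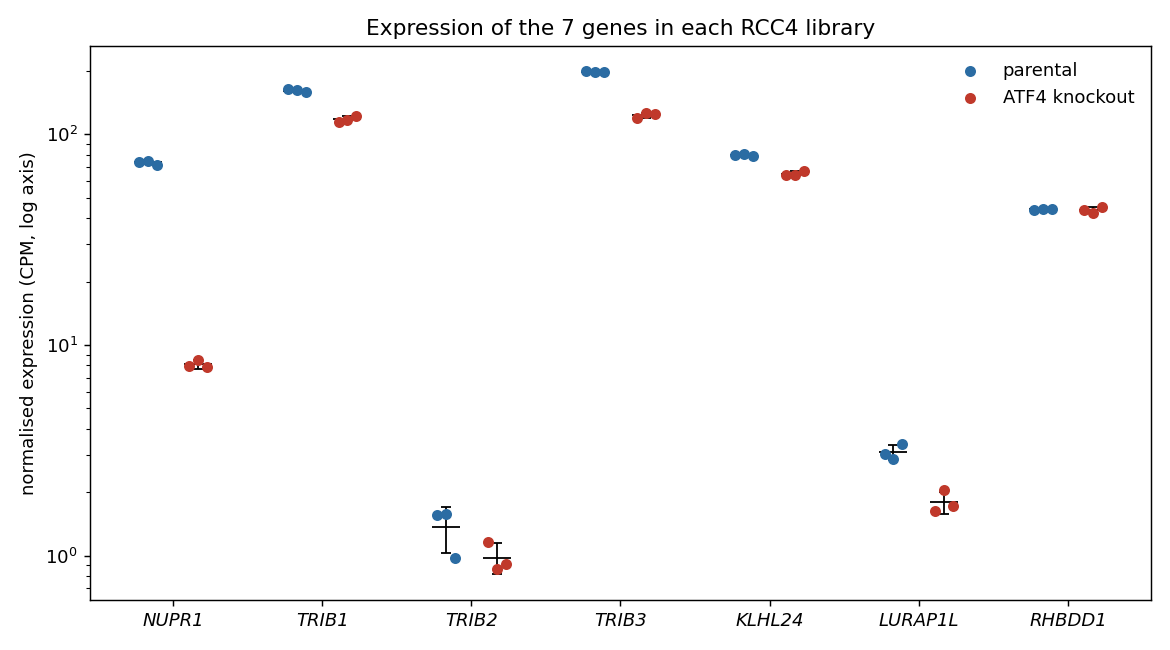
Normalised expression (CPM, log axis) of the 7 genes in each library, blue for the 3 parental and red for the 3 ATF4 knockout libraries, with the mean and SD in black. NUPR1 has the widest gap between the groups (73.5 and 8.09 CPM), TRIB1, TRIB3, KLHL24 and LURAP1L separate by less, and TRIB2 and RHBDD1 overlap.

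In the plot of levels by library, genes of similar CPM differed in how far the groups lay apart, and genes of similar fold change in whether the groups overlapped. NUPR1 and KLHL24 started from similar parental values without scaling for length, 73.5 and 79.5 CPM, and differed in the remaining share, 11% and 81.7%. TRIB1 and TRIB2 had log2 fold changes of -0.45 and -0.49, but the groups overlapped for TRIB2, at 1.37 CPM, and not for TRIB1, at 161 CPM. By the all-gene test 5 of the 7 genes were called lower and 0 higher, beside 20.8% called lower and 21.2% called higher of all tested genes (edgeR, adjusted p below 0.05). In 5 of the 7 every knockout library lay below every parental library, which held for 24.3% of all tested genes. Nothing is read from these counts, since the contrast chose the genes.

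**Figure D2:**
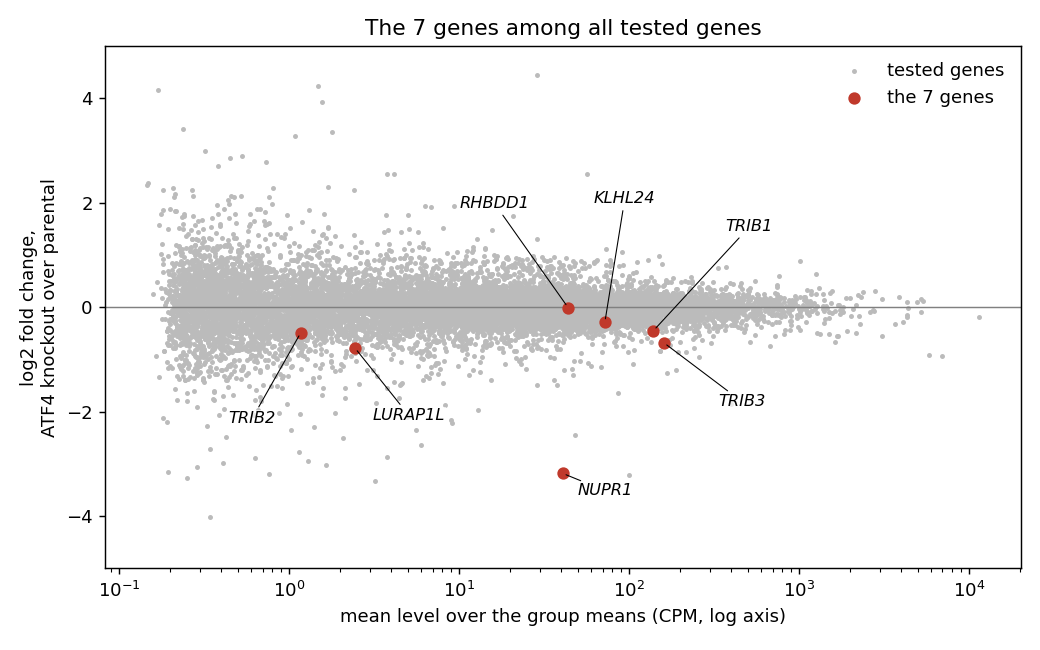
Log2 fold change (ATF4 knockout over parental) against the mean of the group means in CPM (log axis) for all tested genes in grey, of which 9 lie beyond the vertical axis, and the 7 genes in red. NUPR1 at -3.18 stands below the bulk of genes of its level, while TRIB3 at -0.68 and TRIB1 at -0.45 lie at the lower edge of theirs and RHBDD1 lies at 0.

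Among genes of like abundance, as the plot of all tested genes shows, the spread of fold changes narrowed with level. TRIB3 had the 549th lowest log2 fold change of all tested genes but the 108th lowest of the 9351 at 10 CPM or more in parental cells. LURAP1L was the 418th lowest, TRIB2 the 1000th, TRIB1 the 1181st and KLHL24 the 2235th.

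Levels of different genes are compared per length, as mean CPM per kilobase of the union of the GENCODE 29 exons. In parental cells the order was TRIB3 (57.7), TRIB1 (39.0), NUPR1 (13.0), KLHL24 (9.19), RHBDD1 (6.36), LURAP1L (1.45) and TRIB2 (0.298). On this length NUPR1 was in the fifth place in knockout cells, with 1.43, behind KLHL24 with 7.51 and RHBDD1 with 6.32. TRIB3 (35.9) and TRIB1 (28.5) stayed ahead, and LURAP1L (0.842) and TRIB2 (0.213) stayed last. Per length of the principal transcript the order was the same, but there KLHL24 and RHBDD1 in knockout cells were within their spread of each other, at 8.80 ± 0.238 and 8.50 ± 0.265 (SD, n = 3). The annotated NUPR1 transcripts are 550 to 5491 bases long, so its level per length, unlike its fold change, depends on which of them the cells use. With the other genes left at their exon lengths, NUPR1 at 550 bases would have 134 CPM per kilobase in parental cells, above TRIB3, and 14.7 in knockout cells, above KLHL24 and RHBDD1, so its place in either order is not settled.

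Since some chromosomes as a whole had medians away from 0, each gene was also set beside the median log2 fold change of its 100 nearest tested genes on the chromosome. These medians were 0.08 for NUPR1, 0.0012 for TRIB1, 0.06 for TRIB2, -0.09 for TRIB3, 0.03 for KLHL24, 0.09 for LURAP1L and 0.05 for RHBDD1. Relative to them NUPR1 was at -3.26, TRIB3 at -0.60, TRIB1 at -0.45 and LURAP1L at -0.88. TRIB3 was the only one of the 7 with a neighbourhood median below 0, and chromosome 20 as a whole had a median of -0.15.

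**Figure D3:**
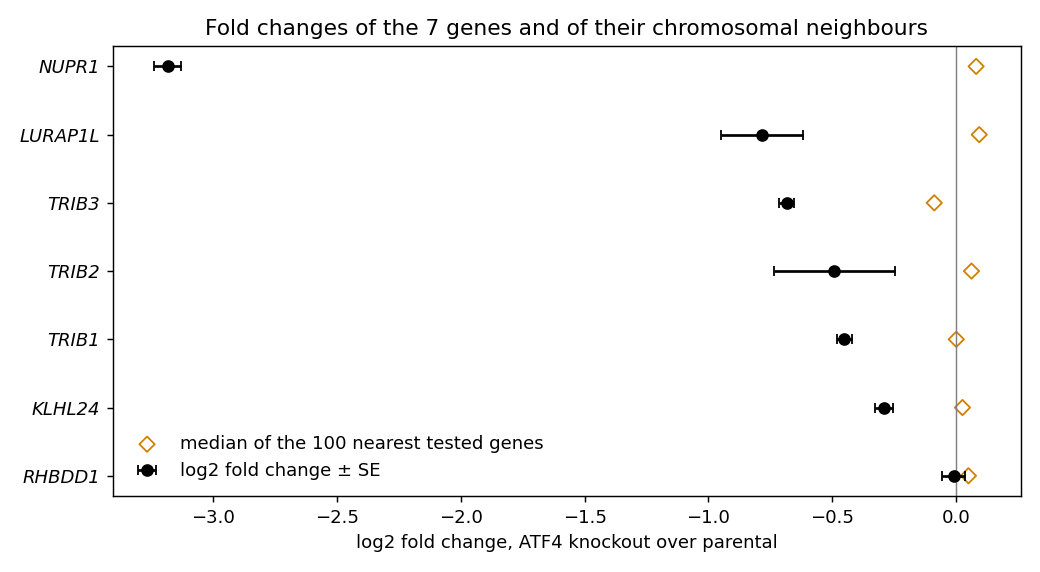
Log2 fold change (ATF4 knockout over parental) with its SE for the 7 genes (black), beside the median log2 fold change of the 100 nearest tested genes (orange diamonds). The diamonds lie between -0.09 and 0.09, and NUPR1 at -3.18 is farthest from its own.

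As the plot of fold changes shows, the regional medians were small beside the values of NUPR1, TRIB1, TRIB3 and LURAP1L. Of the 4 tested genes nearest to NUPR1 1 was lower, 2 were higher and 1 was not called. SGF29, a reader of histone methylation, fell with a log2 fold change of -0.27 ± 0.0817 (edgeR adjusted p = 0.00523), and SBK1, a kinase gene, rose by 0.87 ± 0.313 (adjusted p = 0.0206). Next to TRIB3, RBCK1, a subunit of the linear ubiquitin ligase, fell with a log2 fold change of -0.42 ± 0.0291 (edgeR adjusted p = 3.39e-18), while NRSN2 on the other side rose by 0.20 ± 0.0506 (adjusted p = 0.00111).

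The genes whose pattern over the 6 libraries was most like that of NUPR1 were found by the Euclidean distance between log2 CPM values centred on each gene's mean, among genes averaging 1 CPM or more. The nearest was PSG1, whose reads may be shared with its close copies, at a distance of 0.191. Its mean was 179.8 CPM in parental and 19.4 CPM in knockout cells. The 5 most alike also held the antisense gene ENSG00000228061 at 0.559, JDP2 at 0.761 and the long noncoding RNA ENSG00000259727 at 0.837.

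For TRIB3 the 5 nearest genes were much closer, at distances of 0.0659 to 0.0886, because more genes had fold changes of that size. They were the noncoding RNA ENSG00000259345, SEC14L6, RIPK4, EIF2S3 and LEPROT. EIF2S3, the gamma subunit of eIF2, had 634 CPM in parental and 397 CPM in knockout cells, and RIPK4, a kinase of epithelial differentiation, 100.1 and 63.0 CPM.

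The partners and substrates of tribbles proteins moved in both directions. Of 21 listed genes, all tested, 7 fell, 3 rose and 11 were not called, and the median log2 fold change was -0.05. Called were thus 33.3% lower and 14.3% higher, against 20.8% and 21.2% of all tested genes. CEBPB, a C/EBP factor of inflammation and differentiation, fell from 65.4, 65.1 and 64.1 CPM in parental to 41, 47.9 and 48.0 CPM in knockout libraries, a log2 fold change of -0.50 ± 0.0465 (edgeR adjusted p = 3.16e-12). With the median of its chromosomal neighbours removed, CEBPB was at -0.34. CDC25C, a phosphatase that opens mitosis, rose by 0.84 ± 0.114 (adjusted p = 1.22e-08) and MAP2K1, the kinase MEK1, by 0.27 ± 0.037 (adjusted p = 2.52e-08). The remaining gene called higher was AKT1 at 0.11. DDIT3, the gene of CHOP, fell with a log2 fold change of -0.44 and SQSTM1, an autophagy receptor, with -0.19.

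Partners and reported targets of NUPR1 included genes that rose and genes that fell. Of 16 tested genes among 17 listed, 6 rose, 3 fell and 7 were not called, with a median log2 fold change of 0.07. Called were thus 37.5% higher and 18.8% lower, beside 21.2% and 20.8% of all tested genes. LCN2 had at most 5 counts and was not tested. BNIP3, a mitophagy receptor, rose from 247, 251 and 255 CPM to 322, 327 and 321 CPM, by 0.36 ± 0.0275 on the log2 scale (edgeR adjusted p = 1.32e-16). PTMA, prothymosin alpha, which binds NUPR1, rose by 0.38 ± 0.0301 (adjusted p = 6.15e-15). EP300, a histone acetyltransferase, fell with -0.23 ± 0.0343 (adjusted p = 1.9e-07), but its sign turned to 0.04 with the median of its chromosomal neighbours removed. IER3, an early stress-response gene, fell with -0.21.

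Around KLHL24, the cullin-3 machinery differed little between the groups and desmin, a reported substrate, differed more. Of 11 tested genes among 14, 2 rose, 2 fell and 7 were not called, with a median of 0.05, and 1 of each was called after subtraction of the neighbours' median. The shares, 18.2% higher and 18.2% lower, were near those of all tested genes, 21.2% and 20.8%. UBE2M, which loads NEDD8 onto cullins, fell with a log2 fold change of -0.24 ± 0.0449 (edgeR adjusted p = 1.29e-05), and RBX1, the ring subunit, with -0.21 ± 0.0488 (adjusted p = 0.000356), of which the second turned to 0.05 with its neighbours' median removed. CUL3 itself was higher by 0.09. DES, the intermediate filament desmin, rose by 1.59 ± 0.358 (adjusted p = 0.000225) but from a low level, at 0.230 to 0.341 CPM in parental and 0.624 to 1.22 CPM in knockout libraries. KRT14, KRT5 and GRIK2 had at most 11 counts in any library, so RNA of keratin 14, the known substrate of KLHL24, was barely detected. Protein levels were not measured here.

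Genes of endoplasmic reticulum protein degradation and substrates around RHBDD1 included as many that rose as fell. All 17 were tested, 5 rose, 5 fell and 7 were not called, with a median of 0.03. With the median of neighbouring genes subtracted, 0 rose and 3 fell. The shares were 29.4% in each direction, beside 21.2% higher and 20.8% lower of all tested genes. APP, the amyloid precursor protein and a reported RHBDD1 substrate, had the clearest change and fell 1.46-fold, from 1961, 2066 and 1975 CPM to 1344.5, 1400.2 and 1365 CPM, a log2 fold change of -0.55 ± 0.0285 (edgeR adjusted p = 3.92e-23), which was -0.23 with its neighbours' median removed. The VCP cofactor UFD1 fell with a log2 fold change of -0.27 ± 0.0498 (edgeR adjusted p = 1.01e-05), which turned to 0.03 with its neighbours' median removed. STT3A and SYVN1 were also lower, and ERLIN1, RPN1, DERL2, NPLOC4 and VCP were higher by 0.07 to 0.14.

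Of the 8 genes around LURAP1L and actomyosin, 7 were tested, of which 2 rose, 2 fell and 3 were not called. The shares were 28.6% in each direction, beside 21.2% higher and 20.8% lower of all tested genes. LURAP1 itself had at most 1 count. MYH9, the heavy chain of nonmuscle myosin IIA, fell with a log2 fold change of -0.28 ± 0.0284 (edgeR adjusted p = 4.1e-12), and MYO18A, a LURAP1 partner, with -0.29 ± 0.0479 (adjusted p = 1e-06). CDC42BPB, the kinase MRCK-beta, rose by 0.16 ± 0.0295 (adjusted p = 7.38e-06), and MYL12A was higher by 0.11. With the median of the neighbours removed MYH9 was at -0.0070 and CDC42BPB at 0.071, and neither was called.

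Among 48 paralogs of the 7 genes, 33 were tested, of which 4 rose, 10 fell and 19 were not called, with a median of -0.03. Called were thus 12.1% higher and 30.3% lower, beside 21.2% and 20.8% of all tested genes, and the 4 higher became 2 with the neighbours' median removed. The other 15 had at most 13 counts in any library or were not matched. KLHL13, a cullin-3 adaptor of mitosis whose reads may be shared with its close copy KLHL9, fell from 15.9, 13.9 and 14.4 CPM to 3.19, 3.29 and 3.32 CPM, a log2 fold change of -2.17 ± 0.0993 (edgeR adjusted p = 1.09e-25). KLHL22 fell with -0.83 ± 0.0765 (adjusted p = 1.75e-13) and the rhomboid relative RHBDD3 with -0.58 ± 0.0655 (adjusted p = 9.18e-11). They were at -0.53 and -0.31 with the neighbours' median removed. KLHL35 held 86 counts over the parental libraries and 0 over the knockout libraries and was at least 29.8-fold lower, with 3 counts over the group as the floor. The rhomboid protease RHBDL2 rose from 0.092 to 0.356 CPM in parental to 0.817 to 1.07 CPM in knockout libraries (log2 fold change 1.79 ± 0.371, adjusted p = 7.04e-05), and KLHL12, KLHL28 and KLHL8 were higher by 0.16 to 0.23.

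Other targets of ATF4 and CHOP, among which earlier results of these libraries were known, moved mostly one way. Of 33 listed genes 30 were tested, 21 fell, 5 rose and 4 were not called, with a median log2 fold change of -0.45. Called were thus 70.0% lower and 16.7% higher, beside 20.8% and 21.2% of all tested genes. The list shares CEBPB and DDIT3 with the tribbles partners. SLC7A5, the large neutral amino acid transporter, fell from 607, 621 and 659 CPM to 178, 175 and 169.7 CPM, a log2 fold change of -1.85 ± 0.0302 (edgeR adjusted p = 2.7e-46). Its heavy chain SLC3A2 fell with -1.27 ± 0.0328 (adjusted p = 2.28e-32) and AARS1 with -0.86 ± 0.0285 (adjusted p = 4e-32).

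The larger fold changes were among targets of low level. JDP2 fell with -2.94 ± 0.271 (edgeR adjusted p = 1.46e-13), INHBE, an activin subunit, with -2.89 ± 0.377 (adjusted p = 5.12e-09) and CHAC1 with -2.35 ± 0.287 (adjusted p = 9.16e-10). ADM2, a peptide hormone gene, went from 78 counts over the parental libraries to 0 and was at least 27.1-fold lower. The 5 that rose were ERO1A, EIF4EBP1, TNFRSF10B, VLDLR and SESN2, by 0.10 to 0.28, and for VLDLR and SESN2 the groups overlapped. With the neighbours' median removed 2 were called higher, as also without ATF4 knockout replicate 3, and 3 without parental replicate 1. ASNS, PHGDH and FGF21 had at most 13 counts in any library and were not tested. Beside this list, NUPR1 at -3.18 had a lower fitted value than JDP2, INHBE and CHAC1, but its gaps to JDP2 and INHBE were smaller than their SE. ADM2, at least 27.1-fold lower, differed by more than NUPR1, at 9.09-fold. The parental value of NUPR1 was 73.5 CPM, against 2.31, 1.12 and 1.72 CPM for JDP2, INHBE and CHAC1. TRIB1 at -0.45 lay near the median of the list, and TRIB3 at -0.68 lay below it.

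**Figure D4:**
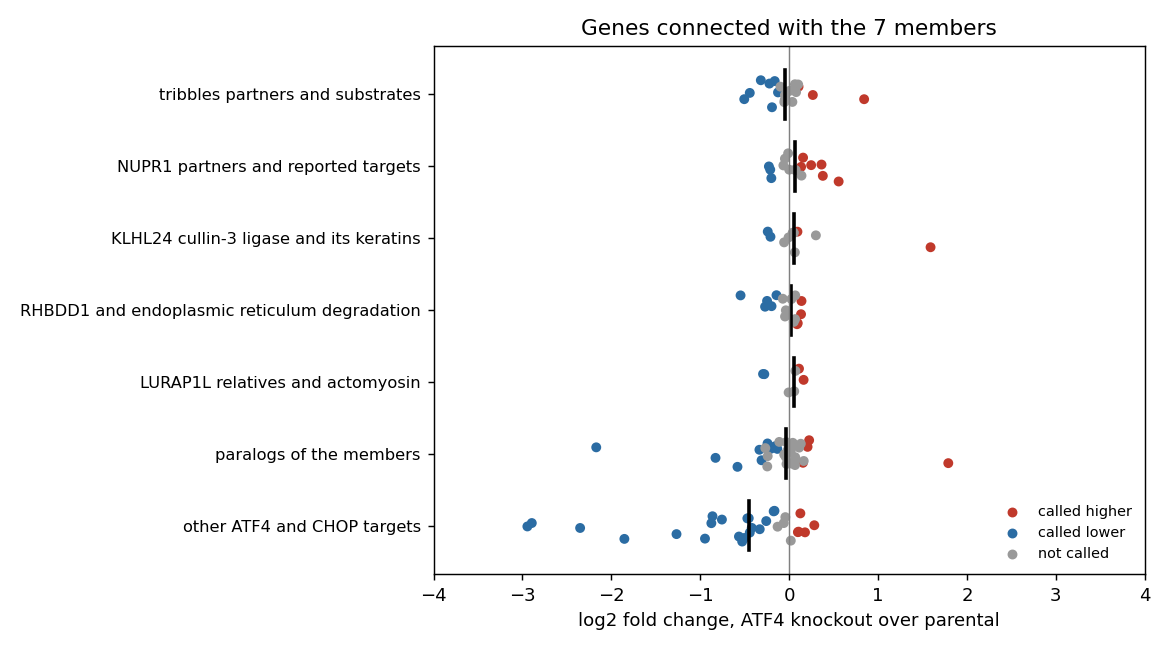
Log2 fold change (ATF4 knockout over parental) of the tested genes in each of the 7 lists, 1 point per gene, blue called lower, red called higher and grey not called, with the list median as a black bar. KLHL35 and ADM2, at 0 counts in the knockout, lie outside the axis, and only the other ATF4 and CHOP targets have a median (-0.45) farther than 0.07 from 0.

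In the plot of the lists, the medians of the 6 lists built around the members' own partners and relatives lay between -0.05 and 0.07, near the median of all tested genes, 0.0077.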

How the data were processed

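Gene expression was measured by RNA sequencing of stranded mRNA libraries from 3 parental and 3 ATF4 knockout RCC4 samples, grouped by their labels. The authors deposited 1 table of raw read counts, with a row for each gene. The authors' processing notes name bcl2fastq 2.20, cutadapt, STAR, HTSeq and GRCh38. The other versions, the gene annotation and whether counting used strand were not given in those sources. Reads shared by paralogs or overlapping genes may be left out or split.

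Symbols came from a table of gene names (60370 of 60683 identifiers) and GENCODE 29 (289 more), which also gave coordinates and lengths. In R 4.3.3, genes kept by filterByExpr (15321) were scaled by TMM and compared with edgeR (4.0.16), by the robust quasi-likelihood F test without a replicate term and with Benjamini-Hochberg adjustment over all tested genes. The threshold for a call was an adjusted p of 0.05. Fold changes give ATF4 knockout over parental, CPM values are TMM-scaled, and 95% intervals use the degrees of freedom of the fit. Total counts were 41002611 to 46755358 per sample. Between 2 replicates of a group, chi-square per degree of freedom was 3.59 to 5.80 over genes (1 would be sampling noise). Between groups it was 37.9 to 44.1. Likeness used log2 CPM with a prior count of 2.

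The 7 members and all lists were chosen with earlier results of these data known. Named genes were the members, ATF4, in each list the 3 genes with the smallest p-values and called genes with an absolute log2 fold change of at least 1, and the 5 genes most like NUPR1 and TRIB3. Some genes that this rule covers are not reported here. Neighbouring genes, and list genes given to fill small counts (among them DDIT3 and SQSTM1), were named after their values were seen. Alternatives were total-count scaling, DESeq2 (1.42.0) size factors and test, limma-voom (3.58.1), no filter, at least 1 CPM in every sample of 1 group, a replicate block, removal of the median of the 100 nearest tested genes, and leaving out each sample. The fit was tested on simulated data.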

Additional observations from a re-analysis of the deposited data

How the results depend on the processing

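The 7 genes kept their sides under the alternatives with 1 exception. NUPR1 ranged from -3.26 to -3.16 on the log2 scale, TRIB3 from -0.70 to -0.60, TRIB1 from -0.48 to -0.42, KLHL24 from -0.32 to -0.27 and LURAP1L from -0.89 to -0.72 over 14 alternatives each, and TRIB2 from -0.68 to -0.38 over 13, since it was not tested with at least 1 CPM in every sample of 1 group. RHBDD1 was lower in 12 and higher in 2, between -0.06 and 0.02. The median of the 7 genes, -0.49, was -0.57 over the 6 tested under that stricter filter. Over all 7 it was -0.55 after subtraction of the neighbours' median, and -0.68 to -0.44 when single samples were left out, the lowest without parental replicate 3, which held the low TRIB2 value.

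With the neighbouring genes' median removed, the sign turned for ATF4 (0.064), EP300 (0.039), RBX1 (0.052) and UFD1 (0.032), and MYH9 and CDC42BPB were no longer called. Calls then were 1 higher and 1 lower (2 and 2 in the main analysis) around KLHL24, 0 higher and 3 lower (5 and 5) around RHBDD1, 1 higher (2) around LURAP1L, 2 higher (4) among paralogs and 2 higher (5) among other ATF4 and CHOP targets. The stricter filter and DESeq2 each gave 1 higher around KLHL24, and scaling by total counts gave 5 higher instead of 3 among tribbles partners. Genes called higher when single samples were left out numbered 1 to 2 around KLHL24 (1 without parental replicate 1, parental replicate 3 or ATF4 knockout replicate 3), 2 to 5 around RHBDD1 (2 without parental replicate 1, 3 without ATF4 knockout replicate 1), 1 to 2 around LURAP1L (1 without either of the same samples), 2 to 3 among paralogs (2 without parental replicate 3) and 2 to 5 among other targets (3 without parental replicate 1, 2 without ATF4 knockout replicate 3). The cause was not tested. Over all genes, leaving out a sample left 2803 to 3056 called lower and 2791 to 3046 called higher.

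Replicate numbers did not pair the samples: deviations of same-numbered samples from their group means correlated at -0.03, 0.0063 and -0.02. With a replicate block 3181 genes were called lower and 3224 higher, the median of the 7 genes was -0.47, and 22 other ATF4 and CHOP targets were called lower. Low counts limit TRIB2 and LURAP1L. With the origin of the knockout cells not stated, the ATF4 knockout and other differences between the lines cannot be told apart.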
